A study of Mus musculus with 18 samples.

Results

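The genes described here encode 9 subunits of Polycomb repressive complex 1 (PRC1): the PCGF proteins Bmi1 and Pcgf2, the RING proteins Ring1 and Rnf2, the chromodomain proteins Cbx2, Cbx7 and Cbx8, and the Polyhomeotic proteins Phc1 and Phc2. They were picked by symbol, as 9 of the 55450 gene IDs in the deposited table of read counts, and all 9 passed the filter on low counts that left 17912 genes to test. The choice by symbol uses no measured value, though it was made with earlier results of these data known.

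PRC1 is a nuclear complex that keeps developmental genes silent. Its core is a RING protein paired with a PCGF protein, and this pair attaches ubiquitin to histone H2A. In canonical PRC1 a CBX protein binds the methylated histone H3 that the partner complex PRC2 makes, and a PHC protein links complexes to each other through its SAM domain. Each of the 4 positions is filled by 1 of several paralogs, so the mixture of paralogs sets which form of the complex a cell can build. In myoblasts Polycomb complexes are known for holding muscle genes silent until differentiation.

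RNA was measured in C2C12, a line of mouse myoblasts whose cells fuse to myotubes once serum is lowered, to ask how the dose of the noncoding RNAs of the imprinted Dlk1-Dio3 cluster bears on muscle cell state. The 6 groups were myoblasts, grown in medium with fetal bovine serum, and myotubes on day 3 in medium with horse serum, each of 3 lines, with 3 libraries (A, B and C) per group. The control line was a sorted population of cells transfected with the pX458 vector alone, which carries Cas9 and EGFP. The overexpressor (clone 2-4) and the knockout (clone 2-7) were each grown from 1 sorted cell after transfection with 2 guide RNAs against the Meg3 promoter region, so each genotype was 1 clone, and genotype and clone cannot be told apart. Nothing in the labels says that replicates were more than cultures of 1 line, so p-values measure only the spread between such cultures. Meg3 itself had 0 counts in all control and all knockout libraries and 5222 to 7763 counts in the overexpressor libraries, so its level does not separate the knockout libraries from the control libraries.

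Libraries held 41544358 to 79140702 counts. The muscle markers Myod1 (192.9 to 423 CPM over all libraries, where CPM is the count divided by the library's TMM-scaled total in units of 1e6 counts) and Des were expressed in every group, while Adipoq, Plin1, Snap25, Epcam and Cd3e, markers of fat, nerve, epithelium and T cells, had at most 3 counts in any library. Summed over each list, markers of osteoblasts reached at most 0.518 CPM, of endothelium 0.559, of leukocytes 1.80 and of epithelium 2.34 in any library. Some of these low genes passed the test between groups: 2 of 3 endothelium markers were higher in control myotubes than in control myoblasts and lower in overexpressor than in control myotubes, and 1 of 3 epithelium markers rose with differentiation in each line. Fat and nerve markers were higher: Tubb3, a tubulin of neurons, held 45.6 ± 4.94 CPM for control, 190.4 ± 14.2 for overexpressor and 3.53 ± 0.0708 for knockout myoblasts, and Cebpa, a factor of fat cells, held 38.5 ± 0.451, 12.0 ± 1.54 and 40.5 ± 0.684 (SD, n = 3). The 10 muscle markers summed to 1352 to 1576 CPM for control, 2644 to 3365 for overexpressor and 12210 to 15170 for knockout myoblasts, and to 15950 to 16480, 26170 to 29420 and 37270 to 45580 in the corresponding myotubes. The 6 proliferation markers fell from 1203 to 1271 CPM in control myoblasts to 102 to 133 in control myotubes, and reached 238 in overexpressor and 242 in knockout myotubes. The part of these shifts in the results below was not tested. In such bulk samples, fewer cells of a type and less RNA per cell cannot be told apart.

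All 9 subunits were expressed in every library. Together they summed to 549.9 to 567 CPM for control, 535 to 574 for overexpressor and 498 to 521 for knockout myoblasts, and to 392 to 402, 423 to 447 and 376 to 389.8 CPM in the myotubes, so that myotube libraries lay below all myoblast libraries. Per length (CPM per kb of the union of annotated exons), Phc2 was the highest subunit in all 6 groups and Cbx7 the lowest. In control myoblasts the order was Phc2 at 31.8 ± 1.66 CPM per kb, Bmi1 at 14.4 ± 2.18, Pcgf2 at 14.0 ± 0.525, Phc1 at 13.3 ± 0.125, Ring1 at 10.7 ± 0.179, Cbx2 at 10.2 ± 0.698, Rnf2 at 8.58 ± 0.434, Cbx8 at 4.24 ± 0.235 and Cbx7 at 4.14 ± 0.137 (mean ± SD, n = 3). The libraries of Bmi1 and Pcgf2, of Ring1 and Cbx2, and of Cbx8 and Cbx7 overlapped, so these neighbours were not separated. In control myotubes Phc2 (20.2 ± 1.13 CPM per kb) led, followed by Ring1 (12.6 ± 0.451). Rnf2, Bmi1 and Pcgf2 overlapped around 10.2 to 10.6. The 3 CBX genes closed the order there, whereas in control myoblasts Cbx2 lay above Rnf2. In knockout myoblasts Bmi1 (21.3 ± 1.5 CPM per kb) stood apart as the second gene, and Pcgf2, Rnf2, Ring1 and Phc1 followed at 11.2 to 11.9, each overlapping the next. In overexpressor myotubes the spread of Bmi1 (14.9 ± 7.47 CPM per kb) reached that of Phc2 (24.0 ± 2.66). With the longest annotated transcript as the length, Phc2 remained first in all 6 groups, but Cbx8 (4.36 CPM per kb) and not Cbx7 (4.43) was last in control myoblasts.

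**Figure D1:**
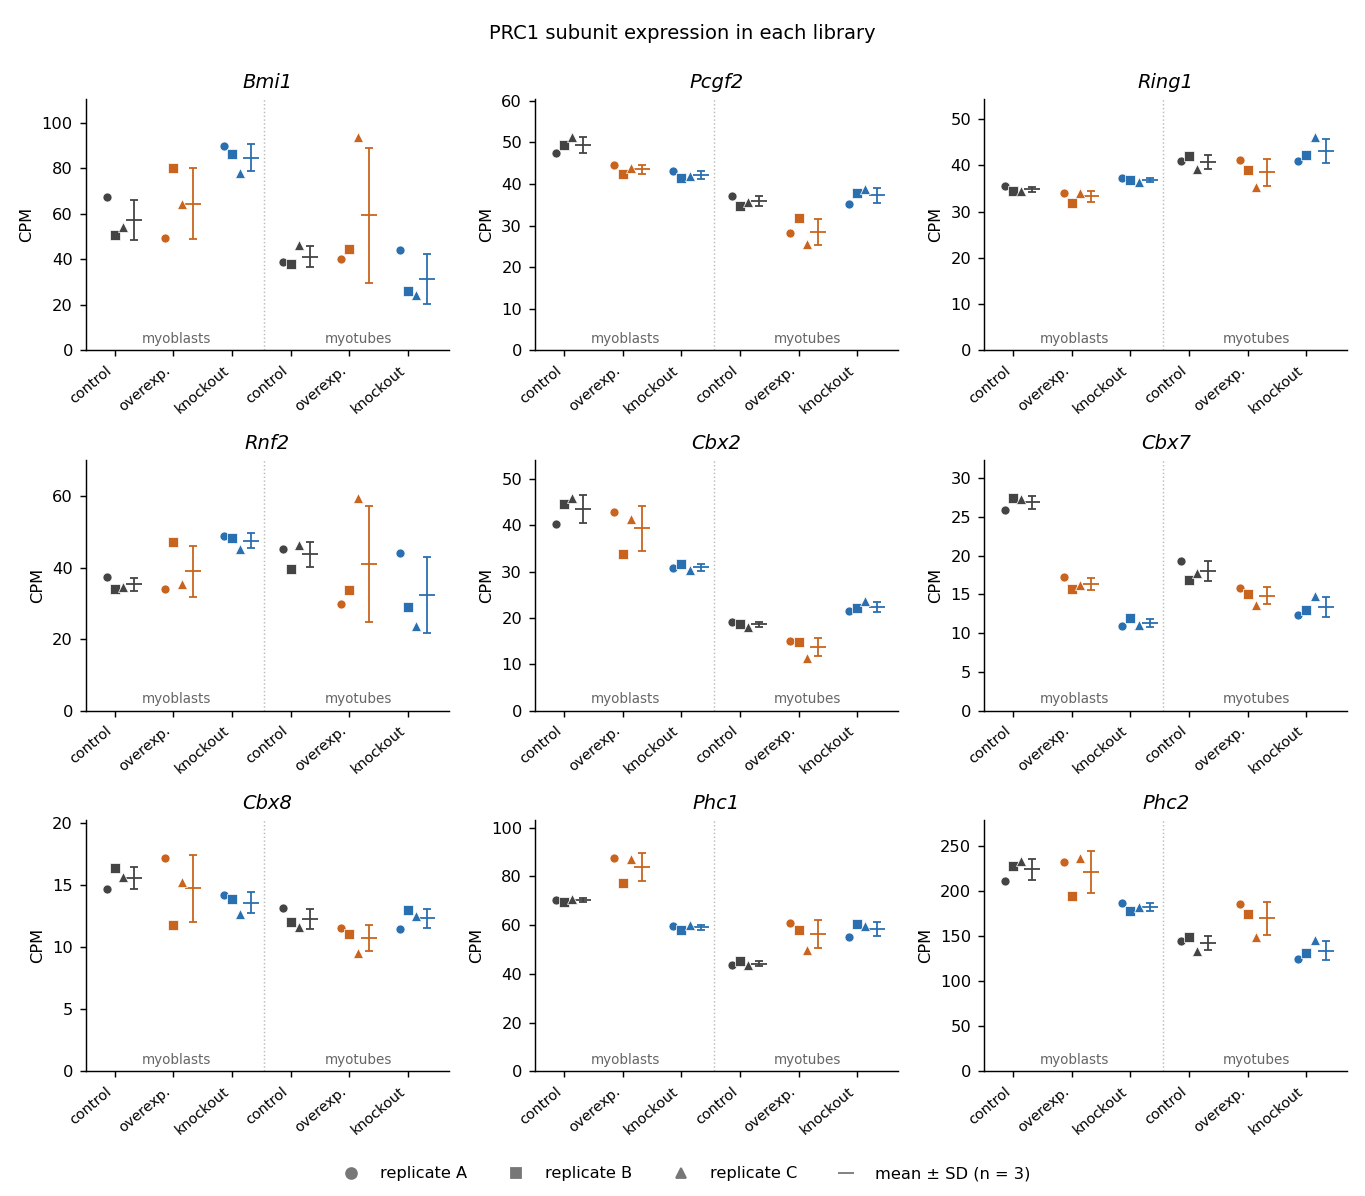
CPM of each PRC1 subunit in the 18 libraries, by line and stage, with axes from 0; circles, squares and triangles are replicates A, B and C, and the bar beside them is the mean ± SD of 3 libraries. Cbx7 is lower in both clones than in control among myoblasts, Cbx2 falls from myoblasts to myotubes in every line, and Bmi1 and Rnf2 spread most among replicates.

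The first question was how many subunits passed the test in each comparison (edgeR quasi-likelihood, adjusted p under 0.05 over all genes tested). Among myoblasts, the overexpressor differed from control in 2 of the 9, beside 40.4% of all genes tested: 1 was higher (Phc1; 20.7% of all genes) and 1 lower (Cbx7; 19.7%). The knockout differed from control in 5, beside 53.0% of all genes, and all 5 were lower (Pcgf2, Cbx2, Cbx7, Phc1 and Phc2), where 26.6% of all genes were lower and 26.4% higher. Knockout and overexpressor myoblasts differed in 4 subunits, beside 52.6% of all genes, and all 4 were lower in the knockout, where 25.7% of all genes were lower and 26.9% higher. Among myotubes, the overexpressor differed from control in 5, beside 57.1%, with 2 higher (26.2% of all genes) and 3 lower (30.9%). The knockout differed from control myotubes in 3, beside 68.0%, with 2 higher (31.0%) and 1 lower (37.0%). The clones differed from each other as myotubes in 5, beside 59.7%, with 3 higher in the knockout (29.1%) and 2 lower (30.6%). With both directions counted together, the share of the 9 that passed lay near or below that of all genes in these 6 comparisons. In both myoblast comparisons of the knockout every subunit that passed was lower, but this depended on the treatment of transcript GC. With each library's GC trend removed (described below), the knockout had 3 higher and 5 lower against control myoblasts. Against overexpressor myoblasts it had 3 higher and 4 lower. Of 10578 and 10469 calls over all 17912 genes tested, 49.2% and 49.3% were then higher. The libraries of the 2 groups did not overlap for 4 of the 9 subunits in overexpressor against control myoblasts, beside 51.1% of all genes, and for 5 of the 9 between the clones as myoblasts, beside 62.2%. They did not overlap for 9 of the 9 subunits in knockout against control myoblasts, beside 68.7% of all genes, for 6 of the 9 in overexpressor against control myotubes, beside 59.9%, for 3 of the 9 in knockout against control myotubes, beside 71.0%, and for 3 of the 9 between the clones as myotubes, beside 60.0%. Both clones were set against the same control libraries.

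From myoblasts to myotubes, 7 subunits passed in the control line (6 lower, Ring1 higher), 6 in the overexpressor (5 lower, Ring1 higher) and 6 in the knockout (4 lower, Ring1 and Cbx7 higher). The shares of all genes tested that passed were 62.8%, 62.8% and 65.4%, with 28.8%, 33.0% and 35.6% lower and 33.9%, 29.8% and 29.8% higher. The median log2 fold change over the 9 subunits was −0.48, −0.38 and −0.18 in the 3 lines, beside 0.07, −0.02 and −0.08 over all genes tested. The change with differentiation differed from that of control in 1 subunit for the overexpressor, Cbx7, with the higher value, beside 39.0% of all genes (16.6% higher, 22.3% lower). For the knockout it differed in 5, beside 50.1% of all genes (20.2% higher, 29.9% lower). Those 5 were Pcgf2, Cbx2, Cbx7 and Phc1, each with a higher value in the knockout than in control, and Rnf2 with a lower one.

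**Figure D2:**
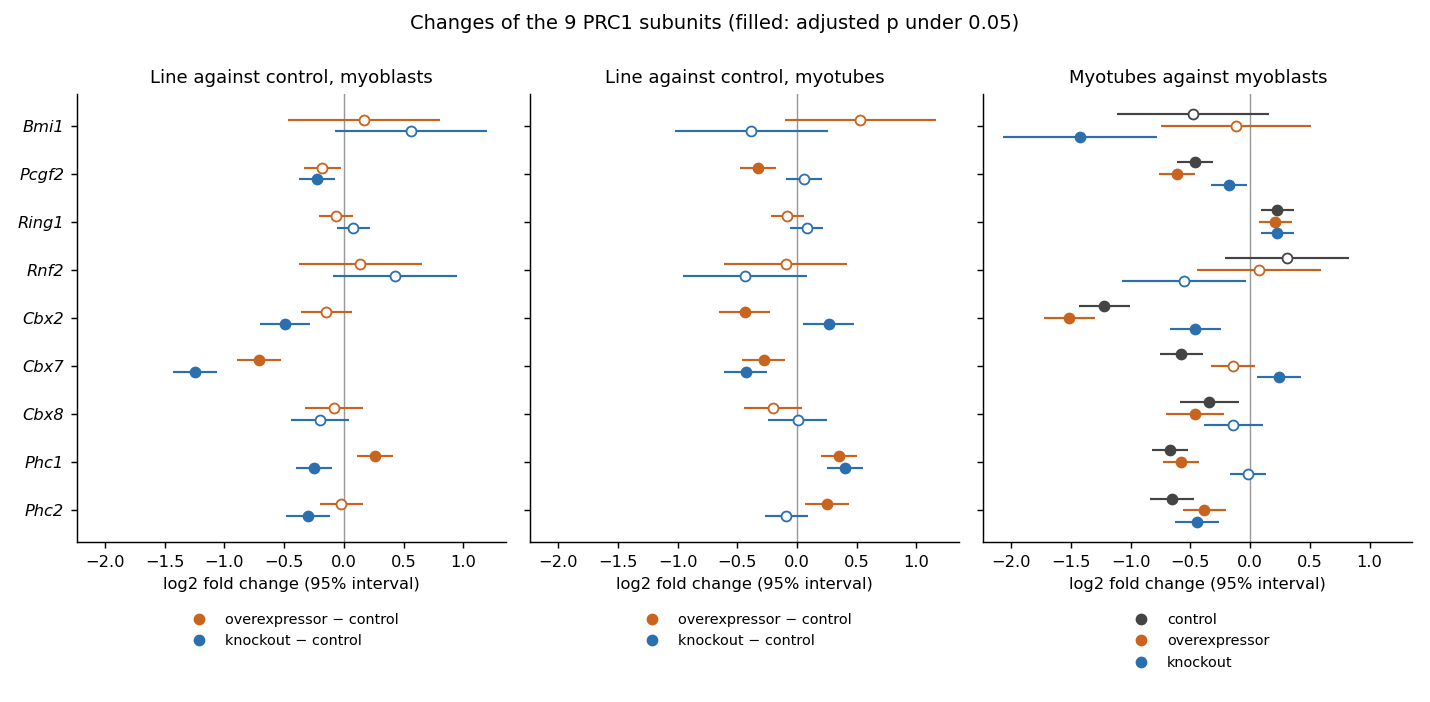
Log2 fold changes of the 9 subunits with 95% intervals from the edgeR fit, for each clone against control in myoblasts (left) and in myotubes (middle) and for myotubes against myoblasts in each line (right); filled points passed an adjusted p of 0.05. The largest fall against control is that of Cbx7 in knockout myoblasts, the largest fall with differentiation that of Cbx2 in the overexpressor, and the widest intervals are those of Bmi1 and Rnf2.

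Cbx7 (chromosome 15, 79915807 to 79971119 on the minus strand of GRCm38, protein-coding) encodes the chromodomain subunit best known from embryonic stem cells, and it is known to repress Cdkn2a. Its level was lower in both clones than in control. Control myoblasts held 25.8, 27.4 and 27.3 CPM in replicates A, B and C, overexpressor myoblasts 17.2, 15.7 and 16.2 and knockout myoblasts 10.9, 11.9 and 11.1. These 3 groups did not overlap: every knockout library lay under every overexpressor library, and these under every control library (groups did not overlap for 51.1%, 68.7% and 62.2% of all genes tested in the overexpressor against control, the knockout against control and the knockout against the overexpressor). The overexpressor was 1.64-fold lower than control (log2 fold change −0.71, SE 0.087, adjusted p = 2.27e-06) and the knockout 2.37-fold lower (−1.25, SE 0.088, adjusted p = 1.16e-09). Between the clones the knockout was 1.45-fold lower (−0.53, SE 0.088, adjusted p = 4.69e-05). These 3 calls held in all 13 alternative analyses. In the same myoblasts 8 of 10 muscle markers were higher in the overexpressor than in control and 9 of 10 in the knockout, and the part of that shift in the Cbx7 result was not tested.

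In myotubes the lines lay closer together for Cbx7. Control myotubes held 19.4, 16.8 and 17.8 CPM, overexpressor myotubes 15.8, 15.1 and 13.6 and knockout myotubes 12.3, 13.0 and 14.8. Knockout myotubes lay below control myotubes (log2 fold change −0.43, SE 0.087, adjusted p = 0.000278), without overlap, as for 71.0% of all genes tested. The overexpressor was also lower than control (−0.28, SE 0.086, adjusted p = 0.0102), but this call was lost without control myotube replicate A (adjusted p = 0.0627), without replicate C of overexpressor myotubes (adjusted p = 0.323), as well as in 5 other analyses. With differentiation Cbx7 fell in control cells (−0.58, SE 0.086, adjusted p = 1.2e-05). In the knockout it rose slightly (0.24, SE 0.088, adjusted p = 0.0236), a call lost in 6 of 13 alternatives, among them the analyses without knockout myoblast replicate A or C and without knockout myotube replicate C (adjusted p = 0.0806, 0.0703 and 0.135). Both clones differed from control in this change, the overexpressor by 0.43 (SE 0.122, adjusted p = 0.00824) and the knockout by 0.82 (SE 0.123, adjusted p = 2.81e-05) on the log2 scale, and both differences held in all 19 alternatives. Of the 6487 bases of annotated Cbx7 exon, 100 overlap Apobec3 on the other strand, and since use of strand is not given in the sources used here, reads of those bases cannot be assigned.

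The promoter of Cbx7 is shown because this gene separated the lines most in myoblasts, together with those of Pcgf2 and Cbx8, whose group means ran most alike among the subunits. Each comes from the 250 bases before a start site (RefSeq, GRCm38.p6), 5′ to 3′ on the gene's strand, without the 122 bases of Cbx7 and 56 of Cbx8 that lie in exons of the same gene in GENCODE M21. The window of Pcgf2 lies within an intron of a longer GENCODE transcript. The printed stretch of Cbx7 also lies inside its annotated gene, which reaches upstream to 79971119, and outside the exons of that gene. Matches to CAGCTG (an E-box of the kind bound by MyoD), CACGTG (the E-box of the MYC family) are in capitals.
Cbx7, chr15:79932769-79932896, minus strand: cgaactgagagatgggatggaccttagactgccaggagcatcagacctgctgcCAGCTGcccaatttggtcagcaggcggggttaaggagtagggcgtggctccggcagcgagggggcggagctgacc
Pcgf2, chr11:97699649-97699898, minus strand: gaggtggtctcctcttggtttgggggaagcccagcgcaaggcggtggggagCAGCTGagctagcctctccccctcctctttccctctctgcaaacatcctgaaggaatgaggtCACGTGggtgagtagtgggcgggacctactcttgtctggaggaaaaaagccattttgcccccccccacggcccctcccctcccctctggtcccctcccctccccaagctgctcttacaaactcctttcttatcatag
Cbx8, chr11:119040970-119041163, minus strand: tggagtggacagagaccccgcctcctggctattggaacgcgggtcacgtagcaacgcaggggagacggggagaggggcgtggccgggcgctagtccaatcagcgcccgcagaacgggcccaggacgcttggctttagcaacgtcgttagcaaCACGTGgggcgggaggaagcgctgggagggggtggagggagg
The table of start sites held 8 of the 9 subunits, with 10 sites; Cbx2 was not in it. CAGCTG, searched on both strands, was in a promoter of Pcgf2, Ring1 and Cbx7, and in 13.0% of the 32851 promoters of the same length. CACGTG was in a promoter of Bmi1, Pcgf2, Cbx8 and Phc2, and in 6.02% of all. Subunits are counted by gene, with a match at any of its start sites, whereas the percentages count single promoters. The search covered all 250 bases, exons included, and the window of Phc1 has 0 bases upstream of the exons of its gene that it overlaps. TGACGTCA, a cyclic AMP response element, was in the window of Cbx8, in the stretch not printed, and in 1.55% of all, and the E2F-type sequences TTTCCCGC or TTTGGCGC were in none of the 10 and in 1.3% of all. The motifs do not overlap each other in the stretches printed, and a match is a description of letters only.

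Cbx2 (chromosome 11, 119022962 to 119031270, plus strand) encodes a CBX protein able to compact nucleosomes, and it had the largest change with differentiation of the 9 in control and in the overexpressor, though not in the knockout, where Bmi1 changed more. Control myoblasts held 40.2, 44.5 and 45.9 CPM and control myotubes 19.2, 18.7 and 18.1. Overexpressor cells went from 42.8, 33.8 and 41.4 to 15.0, 14.8 and 11.5 CPM, and knockout cells from 30.7, 31.7 and 30.3 to 21.6, 22.2 and 23.7. In each line the myotubes lay below the myoblasts without overlap, which held for 70.7%, 62.8% and 72.3% of all genes tested in control, overexpressor and knockout. The fall was 2.33-fold in control (log2 fold change −1.22, SE 0.102, adjusted p = 6.53e-09), 2.86-fold in the overexpressor (−1.51, SE 0.103, adjusted p = 3.27e-10) and 1.38-fold in the knockout (−0.46, SE 0.101, adjusted p = 0.000674). The knockout's change differed from that of control by 0.76 (SE 0.143, adjusted p = 0.000265), in all 19 alternatives. Its smaller fall had 2 parts: among myoblasts the knockout lay below control (−0.49, SE 0.10, adjusted p = 0.000408), and among myotubes it lay above control (0.27, SE 0.102, adjusted p = 0.0274) and above the overexpressor (0.71, SE 0.102, adjusted p = 1.38e-05). The call against control myotubes was lost without control myotube replicate B or C and without knockout myotube replicate C (adjusted p = 0.0584, 0.0801 and 0.0872). Overexpressor myotubes were lower than control (−0.44, SE 0.102, adjusted p = 0.00119), a call lost without overexpressor myotube replicate C (adjusted p = 0.0635). Against control myotubes, 6 of 6 proliferation markers were higher in the overexpressor, and 4 of 6 higher and 1 lower in the knockout; all 6 fell with differentiation in each line, and their part in the Cbx2 results was not tested.

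Cbx8 (chromosome 11, 119036305 to 119040969, minus strand), the neighbour of Cbx2 on the chromosome, encodes another chromodomain subunit. It held 14.7, 16.4 and 15.7 CPM in control myoblasts, 17.2, 11.8 and 15.3 in overexpressor and 14.2, 13.9 and 12.7 in knockout myoblasts. In myotubes the values were 13.2, 12.0 and 11.7 in control, 11.6, 11.1 and 9.54 in overexpressor and 11.5, 13.0 and 12.5 in knockout cells. No comparison between lines passed the test for Cbx8. It fell with differentiation in control (log2 fold change −0.34, SE 0.116, adjusted p = 0.0159) and in the overexpressor (−0.46, SE 0.116, adjusted p = 0.00207). The control call was lost without control myoblast replicate B (adjusted p = 0.0596) or control myotube replicate C (adjusted p = 0.0602).

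The balance of Cbx7 and Cbx2 was therefore compared within libraries, where scaling plays no part. The log2 ratio of Cbx7 to Cbx2 counts among myoblasts was −0.70 ± 0.056 for control, −1.26 ± 0.132 for the overexpressor and −1.45 ± 0.040 for the knockout, and −0.06 ± 0.084, 0.12 ± 0.118 and −0.75 ± 0.069 in the myotubes (SD, n = 3). Groups did not overlap in any of the 9 comparisons, and each gave p = 0.1 in a two-sided exact permutation test, the smallest that 3 against 3 libraries allow. The ratio of Cbx7 to Cbx2 thus was higher in myotubes than in myoblasts of each line, and lower in the knockout than in control at both stages. The log2 ratio of Cbx8 to Cbx2 also rose from myoblasts to myotubes, by 0.88 (control line), 1.07 (overexpressor) and 0.32 (knockout). The rise was therefore not particular to Cbx7. For knockout minus control, Cbx8 to Cbx2 differed by 0.30 among myoblasts and by −0.26 among myotubes. Groups overlapped for Cbx8 to Cbx2 only in overexpressor against control myoblasts. For Phc1 to Phc2 they overlapped only in knockout against control myoblasts and in differentiation of the control line. Overlap was more frequent for Bmi1 to Pcgf2 and for Ring1 to Rnf2. In all, 45 such ratio comparisons were made over 5 pairs of paralogs, and none can pass an adjustment at this sample size.

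Per length, and with Cbx6, another chromodomain gene, beside the 3 subunits, the sum of these 4 genes among myoblasts was 50.2 ± 2.69 CPM per kb for control, 34.4 ± 3.38 for the overexpressor and 25.1 ± 0.388 for the knockout. In myotubes it was 23.7 ± 1.4, 15.7 ± 1.49 and 18.03 ± 0.461 (SD, n = 3). Of this sum Cbx6 carried the largest share in each group, from 62.9% ± 0.756 in control myoblasts to 40.7% ± 2.21 in knockout myotubes. Cbx7 carried 8.25% ± 0.242 in control myoblasts and 6.94% ± 0.292 in knockout myoblasts. In myotubes its share was higher in each line, at 11.7% ± 0.511 for control, 14.6% ± 0.584 for overexpressor and 11.4% ± 0.978 for knockout myotubes. Cbx2 carried 20.4% ± 0.394 in control myoblasts and 18.5% ± 0.582 in control myotubes, but 28.9% ± 0.414 and 29.3% ± 1.17 in the same stages of the knockout.

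**Figure D3:**
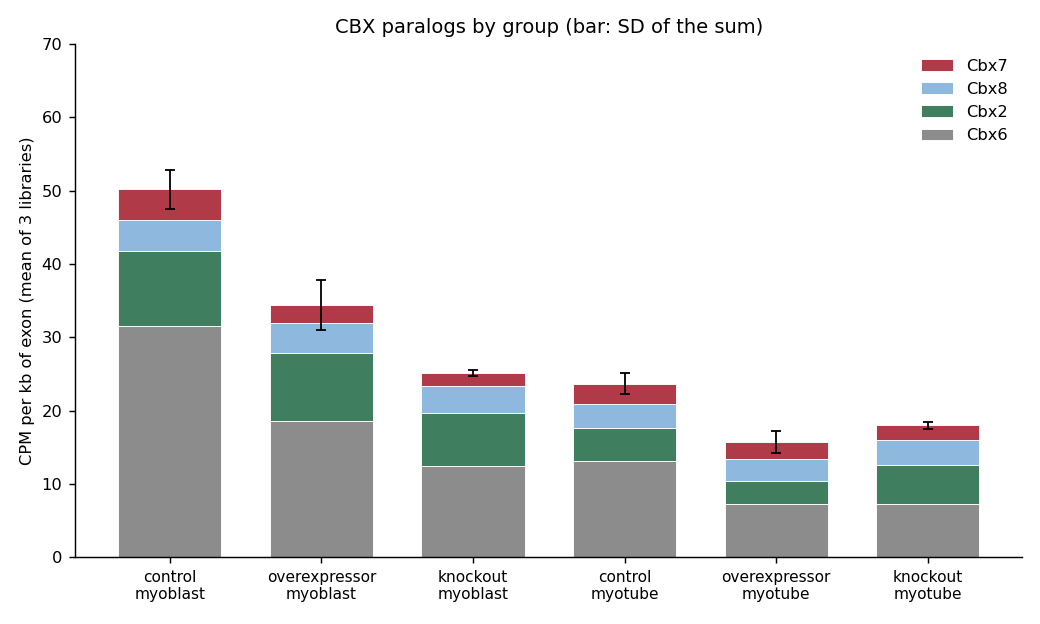
Stacked mean levels of 4 CBX genes in CPM per kb of exon for the 6 groups (3 libraries each), from 0; the error bar is the SD of the sum. The sum is highest in control myoblasts, at 50.2, and Cbx6 is the largest of the 4 in each group.

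Phc1 (chromosome 6, 122317731 to 122340561, minus strand) encodes a SAM-domain protein that holds PRC1 complexes together. Control myoblasts held 70.5, 69.5 and 70.8 CPM, overexpressor myoblasts 87.4, 77.4 and 87.3 and knockout myoblasts 59.6, 58.0 and 60.0. The clones thus lay on opposite sides of control without overlap. Groups did not overlap for 51.1% of all genes tested in overexpressor against control myoblasts and 68.7% in knockout against control myoblasts. The overexpressor was higher than control (log2 fold change 0.26, SE 0.072, adjusted p = 0.00733), the knockout lower than control (−0.25, SE 0.072, adjusted p = 0.00737) and lower than the overexpressor (−0.50, SE 0.072, adjusted p = 9.3e-06). In myotubes control libraries held 43.5, 45.4 and 43.6 CPM, overexpressor libraries 61.0, 58.1 and 49.7 and knockout libraries 55.1, 60.6 and 59.7. Here both clones lay above control, by 0.35 (SE 0.072, adjusted p = 0.00041) and 0.40 (SE 0.072, adjusted p = 8e-05). Phc1 fell 1.59-fold with differentiation in control (−0.67, SE 0.072, adjusted p = 2.07e-07) and 1.49-fold in the overexpressor (−0.58, SE 0.072, adjusted p = 1.2e-06). In the knockout its mean was 59.2 ± 1.02 CPM before and 58.5 ± 2.96 CPM after (SD, n = 3). The difference between knockout and control in this change was 0.65 (SE 0.102, adjusted p = 4.15e-05). All of these Phc1 calls held in every alternative run.

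Phc2 (chromosome 4, 128654702 to 128752881, plus strand), the paralog with the highest level, changed in a different way. Control myoblasts held 211, 228 and 233 CPM, overexpressor myoblasts 232, 195 and 236 and knockout myoblasts 186, 178 and 182. Control and overexpressor overlapped, and all knockout libraries lay below both. Knockout libraries did not overlap those of control for 68.7% of all genes tested, nor those of the overexpressor for 62.2%. The knockout was lower than control by 0.30 (SE 0.087, adjusted p = 0.00695) and than the overexpressor by 0.28 (SE 0.087, adjusted p = 0.0108), the second call being lost without overexpressor myoblast replicate A or C (adjusted p = 0.0504 and 0.0554). Myotubes held 145, 149 and 134 CPM in control, 185, 175 and 149 in the overexpressor and 125, 132 and 145 in the knockout. The overexpressor lay above control (0.25, SE 0.087, adjusted p = 0.0186), but not without control myotube replicate C, overexpressor myotube replicate A or overexpressor myotube replicate B (adjusted p = 0.082, 0.0969 and 0.0552). Knockout myotubes lay below overexpressor myotubes by 0.34 (SE 0.087, adjusted p = 0.00268). With differentiation Phc2 fell in all lines, by 0.66 in control (SE 0.087, adjusted p = 2.89e-06), 0.38 in the overexpressor (SE 0.087, adjusted p = 0.000831) and 0.44 in the knockout (SE 0.087, adjusted p = 0.000238), on the log2 scale. The log2 ratio of Phc1 to Phc2 counts was −1.19 ± 0.083 in knockout myotubes against −1.69 ± 0.066 in control and −1.59 ± 0.011 in overexpressor myotubes (SD, n = 3), without overlap (two-sided exact permutation p = 0.1 for each pair, the smallest possible).

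The remaining 4 genes form the catalytic core, and 2 of them, Bmi1 and Rnf2, moved among replicates together with other GC-poor transcripts. Bmi1 and Pcgf2 encode alternative PCGF partners, and Ring1 and Rnf2 the alternative ubiquitin ligases. The first 120 coding bases of each are shown, with G and C in capitals, because 1 paralog of each pair is poor in GC (GENCODE M21, GRCm38, 5′ to 3′).
Bmi1, chromosome 2, plus strand: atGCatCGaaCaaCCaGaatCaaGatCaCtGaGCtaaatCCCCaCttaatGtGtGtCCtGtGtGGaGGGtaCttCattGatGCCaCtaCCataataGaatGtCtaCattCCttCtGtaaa
Pcgf2, chromosome 11, minus strand: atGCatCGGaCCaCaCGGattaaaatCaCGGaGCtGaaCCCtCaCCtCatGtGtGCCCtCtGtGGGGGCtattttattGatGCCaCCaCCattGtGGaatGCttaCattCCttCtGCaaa
Rnf2, chromosome 1, minus strand: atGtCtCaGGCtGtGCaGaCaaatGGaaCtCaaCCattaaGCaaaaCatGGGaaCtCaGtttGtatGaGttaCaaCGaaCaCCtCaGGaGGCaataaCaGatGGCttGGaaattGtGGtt
Ring1, chromosome 17, minus strand: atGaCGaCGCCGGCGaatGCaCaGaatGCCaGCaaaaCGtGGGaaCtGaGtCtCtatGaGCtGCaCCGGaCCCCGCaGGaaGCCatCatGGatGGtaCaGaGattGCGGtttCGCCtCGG
The whole coding sequence is 43.9% GC in Bmi1 and 56.9% in Pcgf2, and 45.1% in Rnf2 and 62.5% in Ring1. The contrast is larger in the 3′ UTR, at 32.0% in Bmi1 and 50.7% in Pcgf2, and at 34.3% in Rnf2 and 51.7% in Ring1. Over the longest transcript, Rnf2 (39.5%) and Bmi1 (40.2%) lay well under the other 7 subunits (53.1% to 60.4%).

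Replicates of 1 group differed along this same property. Over 11044 genes with a mean of at least 5 CPM, a library's log2 deviation from its group mean correlated with transcript GC across genes with r between −0.714 (overexpressor myotube replicate C) and 0.712 (overexpressor myotube replicate A). Genes of 1 library are not independent, so r is a description. In the library of each group most tilted toward GC-poor transcripts, Bmi1 was the highest of the 3 in 6 of 6 groups and Rnf2 in 6 of 6, whereas Cbx2, Cbx7, Cbx8 and Phc2 were the lowest there in 5 of 6. These counts include knockout myoblasts, whose libraries were barely tilted (r of −0.0708, 0.0204 and 0.0526 for A, B and C). The share of all GC-poor genes that ran this way is not given here. The tilt also differed between groups. In knockout against control myotubes the median log2 fold change was −0.61 over 2726 genes under 45% GC and 0.18 over 2463 genes above 55%, and with differentiation of the knockout the medians were −0.67 and 0.22. In knockout against control myoblasts they were 0.09 and −0.14. An analysis with the GC trend of each library removed was therefore added after the data were seen, and it takes away by its construction any true difference that runs with GC.

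**Figure D4:**
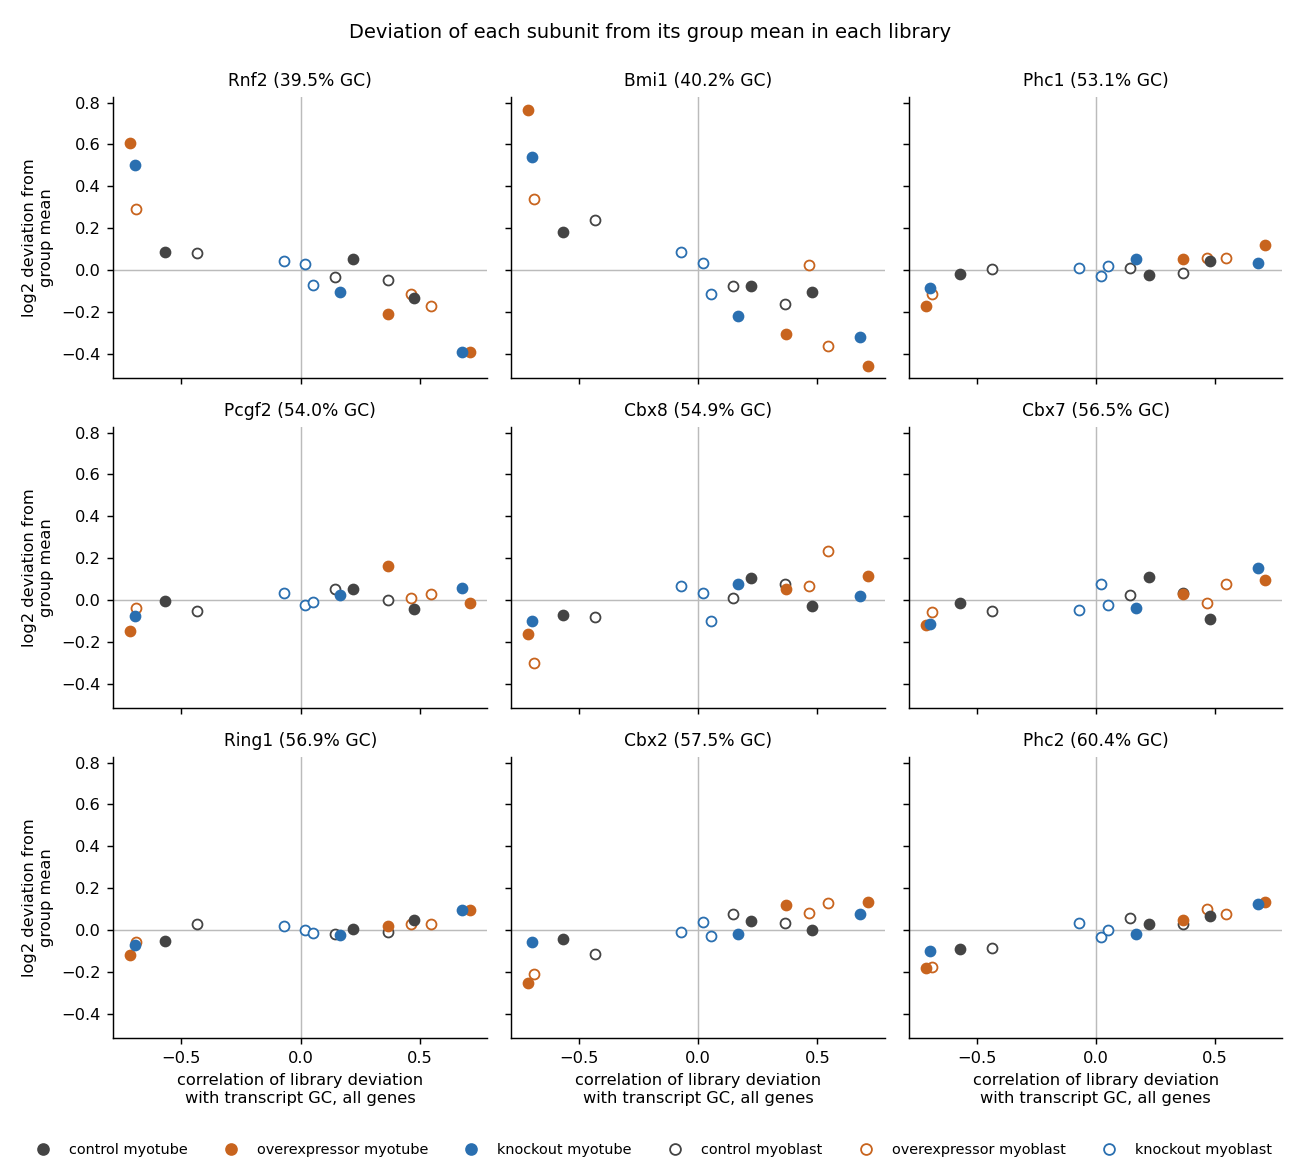
Log2 deviation of each subunit from its group mean (vertical) against the correlation of that library's deviations with transcript GC over 11044 genes (horizontal), 18 libraries per panel; panels run from the lowest to the highest transcript GC, open points are myoblasts and filled points myotubes. Rnf2 and Bmi1 are high in libraries tilted to GC-poor transcripts, and the other 7 subunits deviate less and mostly the other way.

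Bmi1 (chromosome 2, 18677018 to 18686629, plus strand), the PCGF protein known for repressing Cdkn2a, held 67.1, 50.8 and 54.0 CPM for control, 49.1, 80.1 and 64.2 for overexpressor and 89.6, 86.4 and 78.0 for knockout myoblasts. In myotubes the values were 38.8, 38.0 and 46.3 in control, 40.1, 44.5 and 93.5 in the overexpressor and 44.1, 26.0 and 24.3 in the knockout. Replicates of overexpressor myotubes differed up to 2.33-fold. Knockout myoblasts lay above control myoblasts without overlap, where groups did not overlap for 68.7% of all genes tested. The log2 fold change of 0.56 (SE 0.296, adjusted p = 0.127) did not pass, while it did with the GC trend removed (0.42, adjusted p = 0.00369) and with only the 2 groups in the fit (0.55, adjusted p = 0.00852). Bmi1 fell 2.69-fold with differentiation in the knockout (−1.43, SE 0.301, adjusted p = 0.000802), a call that held in all 13 alternatives, at −0.65 with the GC trend removed. Knockout myotubes were lower than overexpressor myotubes (−0.91, SE 0.298, adjusted p = 0.0166) although the groups overlapped, and this call was lost without overexpressor myotube replicate C or knockout myotube replicate B or C (adjusted p = 0.111, 0.0671 and 0.0798) and with the GC trend removed (−0.18, adjusted p = 0.184). Against control myotubes the knockout had −0.38 (SE 0.298, adjusted p = 0.269), and 0.32 (adjusted p = 0.0184) with the trend removed. The sign of the Bmi1 value in knockout against control myotubes thus depended on the treatment of GC. The call between clones in myotubes was also lost with only those groups in the fit (−0.93, adjusted p = 0.077). Overexpressor against control myotubes had 0.53 (SE 0.296, adjusted p = 0.142), and 0.51 (adjusted p = 0.000789) with the trend removed. Knockout against overexpressor myoblasts had 0.39 (SE 0.295, adjusted p = 0.288). This passed with the trend removed (0.34, adjusted p = 0.0144) and with only those groups (0.39, adjusted p = 0.027).

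Pcgf2 (chromosome 11, 97688823 to 97700497, minus strand), also called Mel18, had narrower replicates. Control myoblasts held 47.5, 49.3 and 51.2 CPM, overexpressor myoblasts 44.5, 42.4 and 43.9 and knockout myoblasts 43.1, 41.3 and 41.8. Myotubes held 37.1, 34.7 and 35.7 in control, 28.2, 31.8 and 25.7 in the overexpressor and 35.3, 37.8 and 38.7 in the knockout. It fell 1.38-fold with differentiation in control (log2 fold change −0.46, SE 0.072, adjusted p = 1.94e-05) and 1.53-fold in the overexpressor (−0.61, SE 0.072, adjusted p = 6.16e-07), in every alternative. In the knockout the fall of 0.18 (SE 0.072, adjusted p = 0.0385) was lost in 10 of 13 alternatives, including the removal of any library but knockout myotube replicate C (adjusted p 0.0589 to 0.146). Among myoblasts the knockout was lower than control (−0.23, SE 0.072, adjusted p = 0.012), but not without control myoblast replicate C (adjusted p = 0.0535). Among myotubes Pcgf2 was higher in the knockout than in the overexpressor (0.38, SE 0.072, adjusted p = 0.000199), in every alternative. The overexpressor's lower level against control (−0.33, SE 0.072, adjusted p = 0.000732) was lost without overexpressor myotube replicate C (−0.15, adjusted p = 0.0932). That call was also lost with only the compared groups in the fit (−0.24, adjusted p = 0.0762). The knockout's change with differentiation differed from that of control by 0.28 (SE 0.102, adjusted p = 0.0269), and this was lost in 9 of 19 alternatives: without control myoblast replicate B or C, control myotube replicate B, knockout myoblast replicate B or C, or knockout myotube replicate B or C (adjusted p 0.0502 to 0.0693), with no filter on low counts (adjusted p = 0.114) and with the GC trend removed (adjusted p = 0.234).

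Ring1 (chromosome 17, 34020792 to 34024680, minus strand) was the steadiest subunit: its 6 group means ran from 33.3 to 43.1 CPM, a 1.30-fold range. Control cells held 35.4, 34.5 and 34.4 CPM as myoblasts and 40.8, 42.1 and 39.2 as myotubes. The overexpressor went from 33.9, 31.9 and 33.9 to 41.1, 39.0 and 35.4 CPM and the knockout from 37.2, 36.7 and 36.4 to 40.9, 42.3 and 46.0. It was the 1 subunit that rose in all lines, by 0.23 in control (SE 0.066, adjusted p = 0.00618), 0.21 in the overexpressor (SE 0.066, adjusted p = 0.0103) and 0.23 in the knockout (SE 0.066, adjusted p = 0.00598), on the log2 scale with TMM factors, whereas with library totals the value was −0.02 (adjusted p = 0.842) in control and 0.06 (adjusted p = 0.442) in the knockout. The overexpressor call was lost without overexpressor myotube replicate A (adjusted p = 0.0569) and with only those groups in the fit (adjusted p = 0.0796). The knockout call was also lost with the GC trend removed (0.02, adjusted p = 0.716). Knockout and overexpressor myotubes differed by 0.16 (SE 0.066, adjusted p = 0.0411) with overlapping groups. That call was lost in 11 of 13 alternatives, among them those without knockout myotube replicate B or C or overexpressor myotube replicate B or C (adjusted p = 0.0666, 0.183, 0.0695 and 0.386).

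Rnf2 (chromosome 1, 151458004 to 151500955, minus strand), the main H2A ligase of mouse cells, held 37.5, 34.2 and 34.6 CPM for control, 34.2, 47.2 and 35.6 for overexpressor and 49.1, 48.5 and 45.3 for knockout myoblasts. Myotubes held 45.3, 39.8 and 46.4 in control, 29.8, 33.8 and 59.6 in the overexpressor and 44.3, 29.1 and 23.8 in the knockout. No comparison between 2 groups passed for Rnf2, but several did in an alternative. Knockout myoblasts lay above control myoblasts without overlap, where groups did not overlap for 68.7% of all genes tested. The log2 fold change was 0.43 (SE 0.242, adjusted p = 0.155), and this passed with the GC trend removed (0.27, adjusted p = 0.00662) and with only the 2 groups in the fit (0.42, adjusted p = 4.13e-07). Knockout differentiation had −0.56 (SE 0.242, adjusted p = 0.0562), and passed with library totals (−0.72, adjusted p = 0.0196), with only those groups (−0.49, adjusted p = 0.036) and without knockout myotube replicate A (−0.85, adjusted p = 0.00659), but had 0.27 (adjusted p = 0.00524) with the GC trend removed. The difference in differentiation response between knockout and control did (−0.86, SE 0.342, adjusted p = 0.0485), but only 3 of 19 alternatives kept that call, leaving out any 1 library other than knockout myotube replicate A lost it (adjusted p 0.0548 to 0.122), and with the GC trend removed the value was 0.04 (adjusted p = 0.785). In knockout against control myotubes the log2 fold change turned from −0.44 (SE 0.242, adjusted p = 0.124) to 0.31 (adjusted p = 0.00177) with the trend removed, and was −0.73 (adjusted p = 0.0147) without knockout myotube replicate A. Of 4127 bases of annotated Rnf2 exon, 158 overlap Trmt1l on the other strand.

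Other genes of the Polycomb system were taken from lists made by function. Of 5 further canonical PRC1 subunits (Cbx6, Phc3, Scmh1, Scml2 and Scml4), 3 differed from control in overexpressor myoblasts (2 higher), 4 in knockout myoblasts (1 higher), 4 in overexpressor myotubes (2 higher) and 4 in knockout myotubes (1 higher). In these 4 comparisons 40.4%, 53.0%, 57.1% and 68.0% of all genes tested passed, and the counts of this and the following lists stand beside those shares. With differentiation of control cells 4 passed, 1 of them higher, beside 62.8% of all genes. The list's median log2 fold change was −0.67 in knockout myoblasts and −0.85 in knockout myotubes against control, beside 0.02 and −0.07 over all genes tested. Cbx6 held 334.9 ± 18.9 CPM for control, 198 ± 15.4 for overexpressor and 132 ± 1.35 for knockout myoblasts (SD, n = 3), without overlap. Groups did not overlap for 51.1% of all genes tested in overexpressor against control, 68.7% in knockout against control and 62.2% in knockout against overexpressor myoblasts. Its log2 fold change against control was −0.76 (adjusted p = 1.58e-07) and −1.35 (adjusted p = 5.68e-11), and it fell by 1.26 with differentiation in control (adjusted p = 6.14e-11). Scml4, an Scm-like protein gene, was higher than control in the myoblasts of both clones (1.06, adjusted p = 0.000189, and 1.59, adjusted p = 1.02e-06). Scml2 had 20, 23 and 13 counts in control myoblasts, 136, 150 and 102 in overexpressor myoblasts and 0 in all 6 knockout libraries. Control myotubes held 1, 0 and 0 counts of Scml2, and overexpressor myotubes 47, 68 and 102.

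Variant PRC1 complexes lack CBX and PHC proteins and carry other PCGF partners. Of 18 genes of these complexes, 6, 9, 8 and 12 differed from control in overexpressor myoblasts, knockout myoblasts, overexpressor myotubes and knockout myotubes, with 2, 3, 5 and 4 of them higher, and 12 changed with control differentiation, 5 higher. As shares of the 18 these lie near or below those of all genes. The median was −0.09 in both knockout comparisons with control. Bcorl1, a corepressor of the PCGF1 complex, held 33.2 ± 2.39 CPM in control and 11 ± 1.1 in knockout myoblasts (SD, n = 3; log2 fold change −1.59, adjusted p = 1.2e-10). Kdm2b, which brings that complex to CpG islands, was also lower there (−0.72, adjusted p = 2.74e-07). E2f6, a repressor of the PCGF6 complex, was higher in both clones at both stages, by 0.41 to 0.74 on the log2 scale (adjusted p 8.07e-09 to 2.34e-05). Auts2, of the PCGF3 and PCGF5 complexes, fell by 1.59 with differentiation of control cells (adjusted p = 3.75e-11).

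Ubiquitin is removed from H2A by other enzymes, and PRC2 makes the mark that CBX proteins read. Of 5 genes tested for removal of ubiquitin from H2A, 1, 1, 2 and 4 differed from control in the same order of groups, with 0, 0, 1 and 1 of them higher. In knockout myotubes Bap1, the catalytic subunit of a deubiquitinase, was higher (0.49, adjusted p = 7.97e-06), and among the 3 lower genes were Mysm1 (−1.41, adjusted p = 0.00427) and Asxl2 (−1.11, adjusted p = 8.67e-06). The PRC2 core of Ezh1, Ezh2, Eed and Suz12 had 0, 2, 2 and 4 genes past the threshold, all 4 lower in knockout myotubes, with Suz12 at −1.26 (adjusted p = 0.00372) and Ezh2 at −0.74 (adjusted p = 0.000334), where 37.0% of all genes were lower. Overexpressor myoblasts, with 0 PRC2 genes by edgeR, had 0 at an unadjusted p under 0.05 and 0 by DESeq2. Mysm1 (40% GC), Asxl2 (41.8%), Suz12 (41.6%) and Ezh2 (44.4%) have transcripts under 45% GC, as do Bmi1 and Rnf2, and with the GC trend removed they had −0.68, −0.47, −0.63 and −0.32 in knockout against control myotubes. Cdkn2a and Cdkn2b, the classical locus repressed by PRC1, had 0 counts in all 18 libraries, which allows up to 0.0375 to 0.0693 CPM depending on the library (3 counts, counting error only), so that locus gave no readout in any group.

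To see which genes ran like each subunit, the 6 group means of log2 CPM were centred per gene and compared among 10163 genes with ordinary symbols and a mean of at least 5 CPM, by the root mean square difference over the 6 groups. The nearest genes were Nsdhl (0.089) and Zfp13 (0.107) for Cbx7, Marcksl1 (0.108) and Rbm14 (0.114) for Cbx2, and Slc35b2 (0.051) and Ankrd52 (0.053) for Cbx8. For the PHC genes they were Elmo2 (0.048) and Ints3 (0.061) with Phc1, and Srpk1 (0.051) and Rnf115 (0.065) with Phc2. The PCGF genes lay nearest to Epc2 (0.096) and Tgfbr1 (0.113) for Bmi1, and to Dolpp1 (0.034) and Wiz (0.037) for Pcgf2. For the RING genes the nearest were Snf8 (0.037) and Mrpl17 (0.042) with Ring1, and Atp7a (0.040) and Itgb1 (0.041) with Rnf2. Among the subunits themselves Pcgf2 and Cbx8 were the closest pair, at 0.081, and Ring1 and Cbx2 the farthest, at 0.684. These distances rest on 6 group means each and are descriptions.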

How the data were processed

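Polyadenylated RNA of 18 libraries was measured by RNA-seq. The table used holds read counts per gene, deposited by the authors. Per the submitters' processing notes, STAR 2.7.9a, featureCounts, Subread 2.0.3, FastQC 0.11.7, DESeq2 1.32.0 and mm10 were used, in roles not stated there; which annotation was counted, and whether by strand, is not given in the sources used here. A second, variance-stabilised table was not used. Of 55450 IDs, 55104 matched GENCODE M21 (GRCm38), and the other 346 held 0.0332% of counts.

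The edgeR 4.0.16 quasi-likelihood test (TMM factors, filterByExpr, all 18 libraries, 12 residual degrees of freedom) compared groups, with Benjamini-Hochberg adjustment over all 17912 genes tested and a threshold of 0.05. It was tested on simulated data. CPM uses TMM-scaled library sizes, and levels are per kb of exon union. Alternatives were DESeq2 1.42.0, other scalings, no filter, only the compared groups, a replicate block, leaving out each library, and removal of GC trends. Python 3.11.15 computed the ratios, with exact permutation tests.

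The subunits and the gene lists were chosen with earlier results of these data known. All 9 subunits are named; other Polycomb genes are named from the 2 highest and 2 lowest called log2 fold changes of each list, with a mean of at least 1 CPM in the higher group. 1 gene of the canonical list is not reported here. Replicates of a group all differed beyond sampling noise. Libraries sharing a letter A to C had every correlation of deviations over 0.1 in 2 of 9 comparisons. These were knockout against control myoblasts (0.117 to 0.137) and overexpressor against control myotubes (0.214 to 0.693), where the block changed no subunit's call. Over all 9 comparisons the correlations ran from −0.811 to 0.693, so they do not establish that letters pair samples.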

Additional observations from a re-analysis of the deposited data

Results flagged for a closer look

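The change from myoblast to myotube differed between lines, by the edgeR test of the difference itself, for 6 pairs of subunit and clone. Cbx7 differed from control in the overexpressor by 0.43 (adjusted p = 0.00824) on the log2 scale. In the knockout the difference from control was 0.82 for Cbx7 (adjusted p = 2.81e-05), 0.76 for Cbx2 (adjusted p = 0.000265), 0.65 for Phc1 (adjusted p = 4.15e-05) and 0.28 for Pcgf2 (adjusted p = 0.0269), each with the higher value in the knockout. For Rnf2 it was −0.86 (adjusted p = 0.0485). The calls differed in stability: that of Rnf2 held in 3 of 19 alternatives and that of Pcgf2 in 10 of 19. Those of Cbx7, Cbx2 and Phc1 held in all 19. All 6 were computed against the same control libraries, and 39.0% of all genes tested passed this test for the overexpressor and 50.1% for the knockout. In the knockout, 7 of 10 muscle markers also differed in this change, all lower, and 5 of 6 proliferation markers, all higher; their part in these results was not tested.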

How the results depend on the processing

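Of 49 subunit calls, 32 held in every alternative, 34 without each library, 42 with the GC trend removed (an analysis chosen after seeing the data) and 46 with the replicate block. The block ended the calls of Ring1 between clones in myotubes (adjusted p = 0.0597), Pcgf2 with knockout differentiation (adjusted p = 0.058) and Rnf2 in the difference between knockout and control (adjusted p = 0.0675), and changed no other. With the GC trend removed, values changed sign for Bmi1 (0.32) and Rnf2 (0.31) in knockout against control myotubes, for Rnf2 (0.41) and Ring1 (−0.089) in knockout against overexpressor myotubes, and for Rnf2 in knockout differentiation (0.27) and in its difference from control (0.043). With library totals, Ring1 had −0.016 in control differentiation.

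Counts of subunits called moved as follows, and the cause was not tested. Knockout against control myoblasts had 8 with the GC trend removed (3 higher, 5 lower) and 8 with only the compared groups. Removing the GC trend gave 7 between clones in myoblasts (3 higher in the knockout, 4 lower) and 6 for knockout against control myotubes (4 higher, 2 lower). It gave 4 for the difference between overexpressor and control, all with the higher value in the overexpressor. With that trend removed, the calls over all 17912 genes tested also rose. They went from 9489 to 10578 for knockout against control myoblasts and from 9417 to 10469 between clones in myoblasts. For knockout against control myotubes they went from 12180 to 12458, and for the difference between overexpressor and control from 6977 to 8204. That difference had 2 with DESeq2, 2 with its size factors, 3 with library totals, 2 with no filter and 1 to 3 without single libraries (3 without overexpressor myotube replicate C). Over all genes tested, library totals gave 7067 calls and the size factors 6705, in place of 6977. The same difference for the knockout had 3 with no filter and 3 to 6 without single libraries. Among myotubes, only the compared groups gave 3 for the overexpressor against control (2 to 5 without single libraries, 2 without overexpressor myotube replicate C) and 3 between clones (3 to 6). For only the compared groups, DESeq2, no filter and the removal of single libraries, the share over all genes is not given here. Counts of subunits in those settings therefore describe the dependence on processing and are not results about the subunits.

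Scaling by library totals moved the median of all genes by −0.24 in control differentiation and −0.17 in knockout differentiation (log2), where the share of calls that were higher went from 54.0% to 37.9% and from 45.5% to 34.0%, and by 0.15 in overexpressor against control myotubes, where it went from 45.8% to 57.8%. For the differences in differentiation response that share was 61.0% with library totals and 53.9% with DESeq2 size factors in place of 42.7% in the overexpressor, and 52.0% with size factors in place of 40.4% in the knockout. The subunits held 9.5 to 236 CPM in these libraries, well above the 0.0375 to 0.0693 CPM that a count of 0 allows.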
